A study of Rattus norvegicus with 24 samples.

Results

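The 36 genes described here belong to the unfolded protein response and the heat shock response, the programmes by which cells answer misfolded protein. They were chosen by name, by a rule that uses no measured value although earlier results of these data were known, and were sorted by role into 15 chaperones and folding factors of the endoplasmic reticulum (ER), 4 ER stress sensors and their transcription factors, 8 genes of the Atf4 and Ddit3 arm and 9 cytosolic heat shock genes. Of these, 33 had a row in the table of 29539 genes and all 33 were among the 14421 genes with enough counts to test. Manf, Hspa1a and Hspa1b had no row under these symbols, so their RNA levels are not analysed here.

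The measurements were poly(A)-selected RNA sequencing libraries from the brain of the rat (Rattus norvegicus), 8 in each of 3 groups. The SKF group received the D1-like dopamine receptor agonist SKF-81297, which the design text describes as injected into the peritoneum each day for 3 days, with the first dose 1 h after a stab wound of the forebrain. The vehicle group is labelled by that word alone, and the normal control group is not described as sham-operated. The labels do not give the strain, sex, age or brain region, the time of sampling, or whether each library came from its own animal, so that p-values measure the spread between these libraries, which may be technical. Library totals ran from 8911339 to 12383368 counts. Markers of neurons, astrocytes and oligodendrocytes were present in every library.

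Protein that enters the ER is folded by chaperones such as Hspa5 (BiP) and by protein disulfide isomerases. When unfolded protein accumulates, the membrane sensors Ern1 (IRE1), Atf6 and Eif2ak3 (PERK) raise transcription of chaperone genes through Xbp1 and Atf6, and slow translation through phosphorylation of eIF2α, which favours synthesis of Atf4 and later of Ddit3 (CHOP). In the cytosol the transcription factor Hsf1 drives the heat shock genes, among them the Hsp70, Hsp90 and small heat shock proteins. In the injured brain small heat shock proteins are known to be induced in astrocytes.

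The elements through which these programmes act can be read in the promoters, which are shown because members that passed the test against normal control and members that did not carried the same elements. RefSeq sequences of the rat build GRCr8 were matched by symbol for 28 of the 36 genes. The search covered both strands of the 300 bases from 250 before to 50 after the listed gene start, in 27457 promoters, 1 for each symbol. The ER stress element (ERSE), spelled CCAAT, then 9 bases, then CCACG, occurred in 7 members (Hspa5, Hsp90b1, Calr, Canx, Dnajc3, Creld2 and Xbp1) and in 21 of all promoters (0.0765%). ERSE-II, spelled ATTGG, 1 base, CCACG, occurred in Dnajb11, Herpud1 and Hyou1 and in 15 of all promoters (0.0546%). The UPRE core TGACGTGG occurred in Hyou1, where it overlapped an ERSE-II, and in Bag3, against 175 of all promoters (0.637%). The C/EBP-ATF element TGATGNAA occurred in Herpud1, Trib3 and Chac1, against 1048 of all promoters (3.82%). The heat shock element core, spelled GAANNTTC or TTCNNGAA, occurred in 5 of the 6 cytosolic heat shock promoters (Hspb1, Hsph1, Dnajb1, Hspa8 and Bag3) and in Eif2ak3, against 4233 of all promoters (15.4%). The other cytosolic heat shock promoter, that of Hspa1a, held no core in the window searched. Whether the listed start is the one in use was not checked for Hspa1a or any other gene. A window without a match therefore does not show that the gene lacks the element. A match is a description of these letters and not a shown binding site. The 250 bases before the start of 7 members are given 5′ to 3′ on the gene's strand, with the matched elements in capitals. They are the ER chaperone and folding genes Hspa5 and Creld2, which passed, and Canx and Hyou1, which did not, although each of the 4 holds an ERSE or ERSE-II, then Trib3 with its C/EBP-ATF element, and Hspb1 and Hsph1 with heat shock element cores. Hyou1 has 2 listed starts, of which the first is used. In GRCr8 the windows lie at chr3:38452766-38453015 (plus strand) for Hspa5, chr7:121789134-121789383 (plus strand) for Creld2, chr10:35157858-35158107 (minus strand) for Canx, chr8:53602632-53602881 (plus strand) for Hyou1, chr3:161275534-161275783 (minus strand) for Trib3, chr12:26432302-26432551 (minus strand) for Hspb1 and chr12:10427118-10427367 (plus strand) for Hsph1.
Hspa5: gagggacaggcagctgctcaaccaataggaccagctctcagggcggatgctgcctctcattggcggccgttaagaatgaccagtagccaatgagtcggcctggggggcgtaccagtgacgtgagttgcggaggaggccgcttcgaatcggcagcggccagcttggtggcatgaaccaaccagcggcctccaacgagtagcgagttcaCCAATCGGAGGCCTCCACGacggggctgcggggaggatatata
Creld2: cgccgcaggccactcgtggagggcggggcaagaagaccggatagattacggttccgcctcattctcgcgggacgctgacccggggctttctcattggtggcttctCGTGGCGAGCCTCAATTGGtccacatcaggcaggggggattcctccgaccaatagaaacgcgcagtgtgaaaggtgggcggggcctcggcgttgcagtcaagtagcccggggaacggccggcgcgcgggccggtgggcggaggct
Canx: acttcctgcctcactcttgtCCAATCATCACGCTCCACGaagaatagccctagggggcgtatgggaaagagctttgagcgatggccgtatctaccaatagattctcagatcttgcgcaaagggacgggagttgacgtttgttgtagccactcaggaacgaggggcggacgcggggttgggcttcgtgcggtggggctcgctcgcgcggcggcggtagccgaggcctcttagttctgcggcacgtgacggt
Hyou1: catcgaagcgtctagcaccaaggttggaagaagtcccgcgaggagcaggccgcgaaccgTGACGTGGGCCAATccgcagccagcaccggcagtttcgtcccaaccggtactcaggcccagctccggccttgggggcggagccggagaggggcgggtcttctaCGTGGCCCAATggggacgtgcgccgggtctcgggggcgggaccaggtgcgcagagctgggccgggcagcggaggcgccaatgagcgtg
Trib3: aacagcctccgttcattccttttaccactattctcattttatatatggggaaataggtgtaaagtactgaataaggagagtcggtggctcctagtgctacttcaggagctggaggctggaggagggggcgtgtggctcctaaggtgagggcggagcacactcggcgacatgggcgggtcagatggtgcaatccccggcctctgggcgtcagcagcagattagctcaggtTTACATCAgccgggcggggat
Hspb1: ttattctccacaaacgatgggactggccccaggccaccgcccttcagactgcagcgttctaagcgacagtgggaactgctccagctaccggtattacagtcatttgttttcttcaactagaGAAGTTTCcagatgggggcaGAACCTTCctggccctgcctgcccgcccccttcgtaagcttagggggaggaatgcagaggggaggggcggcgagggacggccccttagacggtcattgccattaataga
Hsph1: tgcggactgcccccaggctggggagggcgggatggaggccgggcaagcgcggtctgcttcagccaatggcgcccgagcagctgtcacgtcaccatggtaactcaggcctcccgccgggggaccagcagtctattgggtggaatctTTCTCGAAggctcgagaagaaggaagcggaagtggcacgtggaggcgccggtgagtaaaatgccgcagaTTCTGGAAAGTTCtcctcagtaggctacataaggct

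Counted back from the last base before the start as −1, the ERSE lay at −43 to −25 in Hspa5, at −145 to −127 in Creld2 and at −230 to −212 in Canx. The 2 ERSE-II matches of Hyou1 lay at −188 to −178 and −88 to −78. The C/EBP-ATF element of Trib3 lay at −21 to −14. The 2 heat shock element cores of Hspb1 lay at −129 to −122 and −109 to −102, and the 3 of Hsph1 at −105 to −98, −36 to −29 and −31 to −24, of which the last 2 overlap.

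SKF and vehicle were each compared with the same normal control libraries, so that these 2 comparisons are not independent. Wounding, injection and handling cannot be told apart in them. Counts were tested with edgeR's quasi-likelihood test over all 14421 genes, and a gene was called at a Benjamini-Hochberg adjusted p under 0.05. In SKF libraries 23 of the 33 genes were higher than in normal control libraries, 1 (Eif2ak3) was lower and 9 did not pass. The share higher was 69.7%, against 25.5% of all genes tested called higher and 24.7% called lower. In vehicle libraries 22 of the 33 were higher, 0 were lower and 11 did not pass, and 23 had an unadjusted p under 0.05. The share higher was 66.7%, against 26.9% of all genes tested called higher and 27.1% called lower. DESeq2 and the other processing settings called 19 to 26 of the 33 genes higher in SKF and 19 to 25 in vehicle. The median log2 fold change of the 33 was 0.33 in SKF and 0.29 in vehicle, where the median over all genes was −0.0087 and −0.0097. The same 22 genes were called higher in both comparisons, and Ern1 was the other gene called higher in SKF. Every SKF library was above every normal control library in 14 of the 33 genes, against 11.5% of all genes tested. Every vehicle library was above every normal control library in 12, against 11.6% of all genes tested. A change of at least 2-fold was called in 3 genes in SKF (Trib3, Ppp1r15a and Hspb1) and in 4 in vehicle, where Creld2 was the other one. The share of all genes past that cut was not counted, so these are descriptions of the named genes only.

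**Figure D1:**
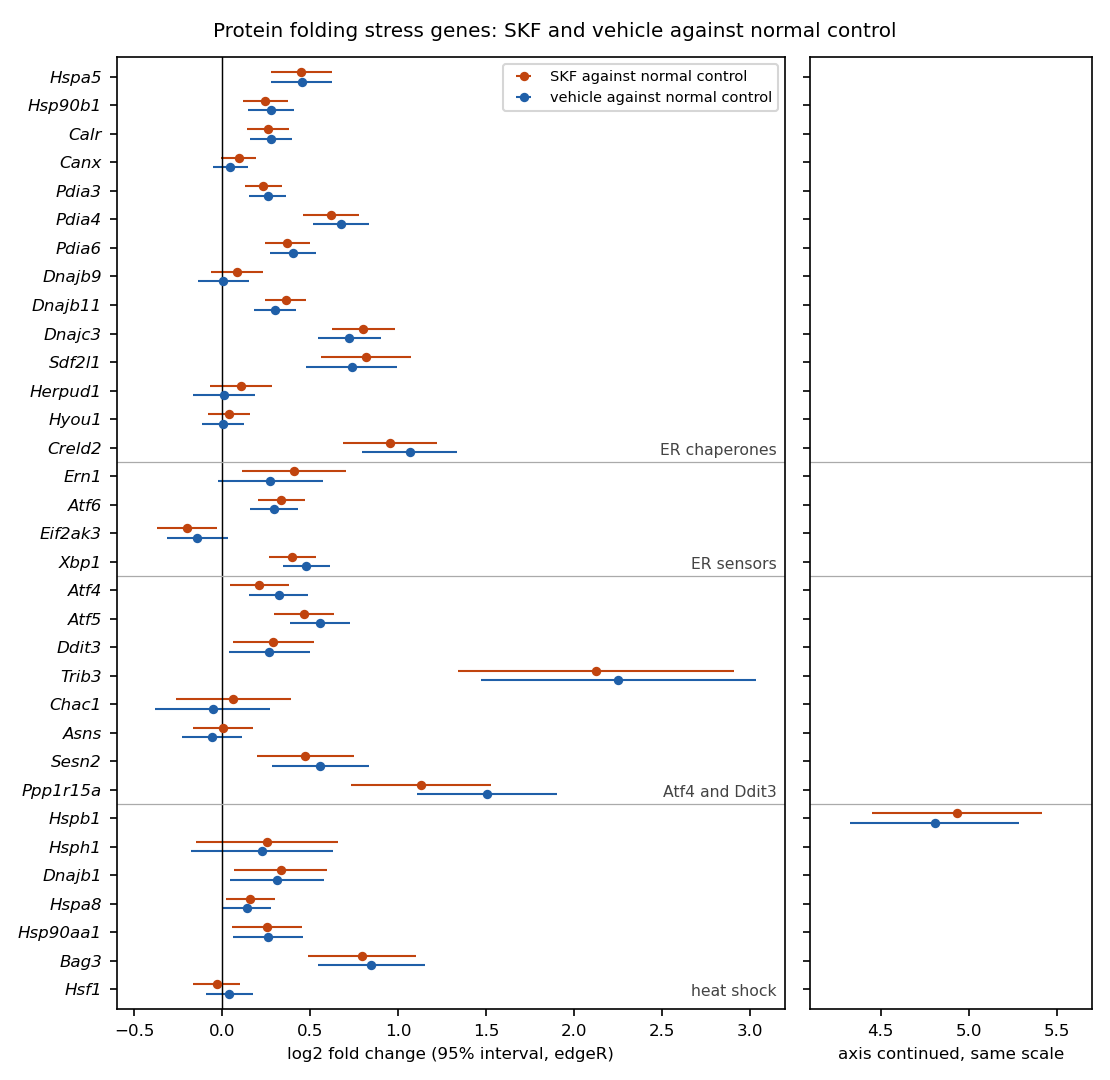
Log2 fold change with its 95% interval from edgeR (x axis) of each of the 33 genes (y axis, grouped by role), for SKF (red) and vehicle (blue) against normal control, with n = 8 libraries a group. Most intervals lie to the right of 0, those of the ER genes Canx, Dnajb9, Herpud1 and Hyou1 cross it, and Hspb1 lies at 4.93 in SKF and 4.80 in vehicle on the continued axis.

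Among the ER chaperones and folding factors, 10 of 14 were higher in SKF and the same 10 in vehicle, with median log2 fold changes of 0.31 and 0.29. Hspa5, the master chaperone of the ER that also holds the stress sensors inactive, had 383, 447 and 514 CPM (the count as a share of the library, scaled by TMM; lowest, median and highest) in SKF libraries, 338, 433 and 635 CPM in vehicle libraries, and 313, 326 and 347 CPM in normal control libraries. Every SKF library was above every normal control library, as were 7 of the 8 vehicle libraries. The log2 fold change of Hspa5 was 0.45 ± 0.08 (SE) in SKF (edgeR adjusted p = 7.17e-05) and 0.45 ± 0.08 in vehicle (adjusted p = 6.09e-05). In a bulk library fewer cells of a type and less RNA in each cell cannot be told apart, for this gene and all that follow.

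The largest change of the ER group was that of Creld2, a folding factor of the ER that is induced by ER stress. It had 18.4, 23.9 and 28.8 CPM in SKF libraries, 18.1, 24.5 and 37.6 CPM in vehicle libraries, and 9.45, 12.1 and 15.3 CPM in normal control libraries. Every SKF and every vehicle library was above every normal control library for Creld2, with log2 fold changes of 0.96 ± 0.13 in SKF (edgeR adjusted p = 7.67e-07) and 1.07 ± 0.13 in vehicle (adjusted p = 1.1e-07). Dnajc3, a co-chaperone of Hspa5 that also restrains Eif2ak3, had 24.3, 27.0 and 29.5 CPM in SKF libraries, 21.3, 24.5 and 34.2 CPM in vehicle libraries, and 12.2, 15.6 and 17.7 CPM in normal control libraries. No Dnajc3 value of SKF or vehicle fell into the normal control range, and its log2 fold changes were 0.80 ± 0.09 in SKF (edgeR adjusted p = 1.59e-08) and 0.72 ± 0.09 in vehicle (adjusted p = 8.9e-08). Pdia4, a disulfide isomerase, had 62.1, 69.6 and 82.5 CPM in SKF libraries, 62.3, 71.5 and 95.1 CPM in vehicle libraries, and 41.0, 44.1 and 51.9 CPM in normal control libraries. It did not overlap normal control either, at log2 fold changes of 0.62 ± 0.08 in SKF (edgeR adjusted p = 1.73e-07) and 0.67 ± 0.08 in vehicle (adjusted p = 3.27e-08). Sdf2l1, which works with the Hspa5 co-chaperones, rose by 0.82 on the log2 scale in SKF and by 0.74 in vehicle, again without overlap.

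The abundant chaperones had smaller fold changes. Hsp90b1 (Grp94) and Calr (calreticulin) had log2 fold changes of 0.25 and 0.26 in SKF, and of 0.28 each in vehicle. Calr had 501, 557 and 642 CPM in SKF libraries, 486, 571 and 683 CPM in vehicle libraries, and 450, 465 and 497 CPM in normal control libraries, so that SKF did not overlap normal control and 1 vehicle library did. The disulfide isomerases Pdia3 and Pdia6 and the J-domain co-chaperone Dnajb11 did not overlap normal control in either comparison. Their log2 fold changes were 0.23, 0.37 and 0.36 in SKF, and 0.26, 0.40 and 0.30 in vehicle, in the order Pdia3, Pdia6 and Dnajb11.

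The 4 ER genes that did not pass in either comparison were Canx, Hyou1, Dnajb9 and Herpud1. Canx (calnexin), the membrane-bound lectin partner of Calr, had 578, 590 and 616 CPM in SKF libraries, 506, 581 and 649 CPM in vehicle libraries, and 507, 556 and 605 CPM in normal control libraries. These ranges overlapped, and the log2 fold changes were 0.09 (95% interval −0.01 to 0.19) in SKF and 0.05 (−0.05 to 0.15) in vehicle. Its promoter carries an ERSE, as do those of Hspa5 and Creld2 printed with it. Hyou1, an Hsp110-like chaperone of the ER, had 144, 163 and 171 CPM in SKF libraries, 138, 153 and 183 CPM in vehicle libraries, and 141, 155 and 172 CPM in normal control libraries. Its log2 fold change was 0.04 (−0.08 to 0.16) in SKF and 0.00 (−0.12 to 0.12) in vehicle. Dnajb9, a J-domain repressor of Ern1, and Herpud1, which serves ER-associated degradation, lay at 0.08 and 0.11 in SKF and at 0.01 each in vehicle, with intervals that included 0. On the log2(TPM + 1) scale, where TPM is the deposited length-corrected level, Canx passed in both comparisons, at 0.20 in SKF (limma adjusted p = 0.00204) and 0.17 in vehicle (adjusted p = 0.0054). On that scale the median log2 fold change over the 15280 genes tested was 0.0872 in SKF and 0.109 in vehicle. It split the calls over all genes into 4996 higher and 2296 lower in SKF and 5476 higher and 2408 lower in vehicle, where the edgeR counts were 3682 and 3557 in SKF and 3879 and 3904 in vehicle.

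**Figure D2:**
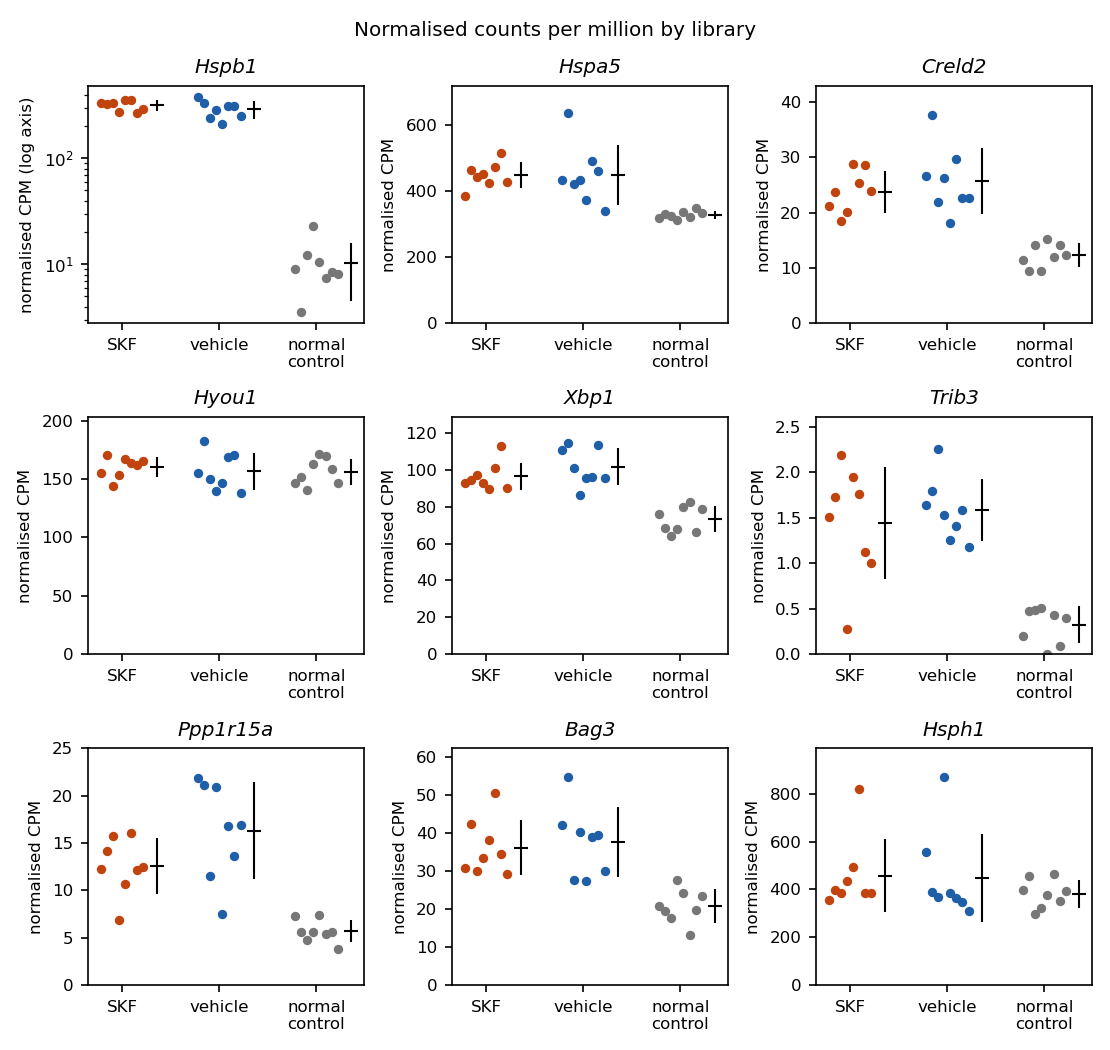
Normalised CPM (y axis, logarithmic for Hspb1 and from 0 for the other genes) of 9 of the genes in every SKF, vehicle and normal control library (points), with the group mean and SD beside them (n = 8). Hspb1, Creld2 and Xbp1 do not overlap normal control in either group, Hyou1 does in both, and SKF 6 and vehicle 4 stand apart in Hsph1 at 819 and 871 CPM.

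Of the sensors, Xbp1, the transcription factor activated when Ern1 splices its RNA, had 90.0, 94.0 and 113 CPM in SKF libraries, 86.5, 98.8 and 115 CPM in vehicle libraries, and 64.4, 72.4 and 82.9 CPM in normal control libraries. Neither SKF nor vehicle overlapped normal control, and the log2 fold change was 0.40 ± 0.07 in SKF (edgeR adjusted p = 1.15e-05) and 0.48 ± 0.07 in vehicle (adjusted p = 6.94e-07). Gene counts do not separate the spliced from the unspliced form. Atf6, the sensor that is cleaved to become a transcription factor, rose by 0.34 on the log2 scale in SKF and 0.29 in vehicle.

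Ern1, the sensor kinase and nuclease, had 6.19, 7.10 and 9.17 CPM in SKF libraries, 4.01, 6.57 and 8.83 CPM in vehicle libraries, and 4.50, 5.23 and 7.15 CPM in normal control libraries. It passed in SKF at 0.41 ± 0.14 (edgeR adjusted p = 0.0198) and did not pass in vehicle at 0.27 ± 0.14 (adjusted p = 0.111). Between SKF and vehicle themselves Ern1 differed by 0.13 (95% interval −0.16 to 0.42), which did not pass, so a difference in response was not shown. Eif2ak3, the kinase that phosphorylates eIF2α, was the member called lower in SKF, with 30.5, 33.4 and 39.2 CPM in SKF libraries, 30.8, 36.3 and 39.3 CPM in vehicle libraries, and 29.2, 41.3 and 48.1 CPM in normal control libraries. Each of the SKF and vehicle libraries was below the normal control median, within the normal control range. Its log2 fold change was −0.20 ± 0.08 in SKF (edgeR adjusted p = 0.0466) and −0.14 ± 0.08 in vehicle (adjusted p = 0.158). The SKF call was lost under 18 of 35 other settings, the log2(TPM + 1) scale among them. Normal control 6, at 29.2 CPM, was the lowest library of all, and without it Eif2ak3 was called lower in vehicle too, at −0.19 (edgeR adjusted p = 0.0307).

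In the Atf4 and Ddit3 arm, 6 of 8 genes were higher in SKF and the same 6 in vehicle, with median log2 fold changes of 0.38 and 0.44. Atf4, the transcription factor whose translation rises when eIF2α is phosphorylated, had 137, 150 and 166 CPM in SKF libraries, 131, 158 and 204 CPM in vehicle libraries, and 102, 130 and 146 CPM in normal control libraries. The ranges overlapped, with log2 fold changes of 0.21 ± 0.08 in SKF (edgeR adjusted p = 0.0321) and 0.32 ± 0.08 in vehicle (adjusted p = 0.00154). The SKF call of Atf4 was lost under 8 of 35 other settings, and without normal control 6, the lowest library at 102 CPM, it was 0.17 (edgeR adjusted p = 0.0713). Its RNA level is not a measure of its translation. Atf5, a related factor, rose by 0.46 on the log2 scale in SKF and by 0.56 in vehicle. Ddit3, the factor linked to cell death under prolonged ER stress, had 16.3, 22.2 and 29.9 CPM in SKF libraries, 16.2, 23.4 and 27.8 CPM in vehicle libraries, and 14.6, 18.5 and 22.6 CPM in normal control libraries. Its groups overlapped widely, at 0.29 ± 0.11 in SKF (edgeR adjusted p = 0.0338) and 0.27 ± 0.11 in vehicle (adjusted p = 0.0459). The Ddit3 call was lost under 9 of 35 other settings in SKF and 19 of 35 in vehicle.

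The known targets of this arm differed in whether they passed. Trib3, a pseudokinase gene induced by Atf4 and Ddit3, had 0.281, 1.62 and 2.19 CPM in SKF libraries, 1.18, 1.56 and 2.26 CPM in vehicle libraries, and 0, 0.414 and 0.511 CPM in normal control libraries. It rose by 2.12 ± 0.38 on the log2 scale in SKF (edgeR adjusted p = 3.79e-05) and by 2.25 ± 0.38 in vehicle (adjusted p = 1.52e-05), and 1 SKF library lay inside the normal control range. Trib3 rested on 3 to 24 counts a library in SKF, 13 to 26 in vehicle and 0 to 6 in normal control, and on the log2(TPM + 1) scale its fold change was 1.06 in SKF and 1.22 in vehicle, since a pseudocount shrinks low values. Ppp1r15a (GADD34), which returns phosphorylated eIF2α to its resting state, had 6.83, 12.3 and 16.0 CPM in SKF libraries, 7.45, 16.8 and 21.9 CPM in vehicle libraries, and 3.85, 5.62 and 7.41 CPM in normal control libraries. Its log2 fold change was 1.13 ± 0.19 in SKF (edgeR adjusted p = 2.2e-05), where 1 library overlapped normal control, and 1.51 ± 0.19 in vehicle (adjusted p = 2.77e-07), where none did. Sesn2, a stress-induced regulator of growth signalling, had 23.6, 24.8 and 46.5 CPM in SKF libraries, 24.3, 28.3 and 40.7 CPM in vehicle libraries, and 13.8, 21.1 and 22.7 CPM in normal control libraries. It did not overlap normal control, at 0.47 ± 0.13 in SKF (edgeR adjusted p = 0.00472) and 0.56 ± 0.13 in vehicle (adjusted p = 0.00103). Chac1, a glutathione-degrading enzyme, and Asns, asparagine synthetase, are also known Atf4 targets and did not pass. Chac1 had 9.55, 10.8 and 13.0 CPM in SKF libraries, 6.54, 9.12 and 19.4 CPM in vehicle libraries, and 8.13, 10.3 and 14.5 CPM in normal control libraries. Its log2 fold change was 0.06 (95% interval −0.26 to 0.39) in SKF and −0.05 (−0.38 to 0.27) in vehicle, and that of Asns was 0.01 (−0.17 to 0.18) in SKF and −0.06 (−0.23 to 0.12) in vehicle. Of the 3 members with the C/EBP-ATF element in the window searched, Trib3 rose, and Chac1 and Herpud1 did not pass.

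Among the cytosolic heat shock genes, 4 of 7 were higher in SKF and the same 4 in vehicle, with a median log2 fold change of 0.26 in both, and 1 gene stood far from the others. The count of 4 fell to 2 in SKF without SKF 5, SKF 6 or normal control 4, and in vehicle without vehicle 4. Hspb1 (Hsp27), a small heat shock protein that holds unfolded proteins and binds the cytoskeleton, had 266, 331 and 358 CPM in SKF libraries, 209, 299 and 381 CPM in vehicle libraries, and 3.54, 8.76 and 23.1 CPM in normal control libraries. The lowest SKF and vehicle libraries were far above the highest normal control library. The rise was 30.6-fold in SKF (log2 4.93 ± 0.23, edgeR adjusted p = 3.75e-14) and 28.0-fold in vehicle (log2 4.80 ± 0.23, adjusted p = 4.65e-14). Over all settings it stayed between 4.80 and 5.23 in SKF and between 4.67 and 5.10 in vehicle. Among the normal control libraries Hspb1 was highest in library 4, at 23.1 CPM, with the next at 12.2 CPM. That library also had the highest sum of skeletal muscle markers, which ran from 5.84 to 11.5 CPM in SKF, 6.39 to 12.6 CPM in vehicle and 8.81 to 2080 CPM in normal control. Of these markers 3 of 3 tested were called lower in both. The medians of the sum were close, at 9.78 CPM in SKF, 9.37 CPM in vehicle and 9.63 CPM in normal control. These calls therefore do not show a fall of the sum across libraries. Without normal control 4 the log2 fold change of Hspb1 was 5.23 in SKF and 5.10 in vehicle.

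Bag3, a co-chaperone that joins Hsp70 to selective autophagy, had 29.4, 34.0 and 50.5 CPM in SKF libraries, 27.3, 39.2 and 54.7 CPM in vehicle libraries, and 13.2, 20.3 and 27.7 CPM in normal control libraries. SKF did not overlap normal control, and vehicle did in part, at log2 fold changes of 0.80 ± 0.15 in SKF (edgeR adjusted p = 7.39e-05) and 0.85 ± 0.15 in vehicle (adjusted p = 3.02e-05). Hsp90aa1, the inducible cytosolic Hsp90, had 1257, 1313 and 1730 CPM in SKF libraries, 1124, 1364 and 2112 CPM in vehicle libraries, and 1067, 1169 and 1296 CPM in normal control libraries. It passed at 0.25 ± 0.10 in SKF (edgeR adjusted p = 0.0297) and 0.26 ± 0.10 in vehicle (adjusted p = 0.0238), but not without SKF 6 (0.20, adjusted p = 0.0855) or without vehicle 4 (0.16, adjusted p = 0.0894). Dnajb1, the Hsp40 partner of Hsp70, had 57.2, 68.4 and 88.3 CPM in SKF libraries, 53.0, 58.4 and 115 CPM in vehicle libraries, and 44.9, 56.7 and 62.9 CPM in normal control libraries. It passed at 0.33 ± 0.13 in SKF (edgeR adjusted p = 0.0341) and 0.31 ± 0.13 in vehicle (adjusted p = 0.0431), but not without SKF 6 (0.27, adjusted p = 0.0909) or without vehicle 4 (0.16, adjusted p = 0.153). In all, the Dnajb1 call was lost under 9 of 35 other settings in SKF and 15 of 35 in vehicle, the replicate block and several single left-out libraries among them.

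Hsph1, Hspa8 and Hsf1 did not pass. Hsph1, the cytosolic Hsp110 that recharges Hsp70, had 355, 392 and 819 CPM in SKF libraries, 308, 376 and 871 CPM in vehicle libraries, and 298, 385 and 465 CPM in normal control libraries. The medians lay close together and 1 library in each of SKF and vehicle was far above the rest, so that the log2 fold change of 0.26 (95% interval −0.15 to 0.66) in SKF and 0.23 (−0.17 to 0.63) in vehicle carried wide intervals. Without SKF 6 the SKF value was 0.080, and over all settings the vehicle value went down to 0.016. Hspb1 and Hsph1 both hold heat shock element cores in the printed promoters. Hspa8, the constitutive Hsp70, had 2052, 2147 and 2512 CPM in SKF libraries, 1656, 2156 and 2598 CPM in vehicle libraries, and 1809, 1993 and 2104 CPM in normal control libraries. It lay at 0.16 in SKF (edgeR adjusted p = 0.0503) and 0.14 in vehicle (adjusted p = 0.0819), and passed in both on the log2(TPM + 1) scale. Processed copies of Hspa8 are common in mammalian genomes, so that its reads may have been split or lost in counting. Hsf1, the transcription factor of the response, is regulated mainly by its protein state, and its RNA had a log2 fold change of −0.03 (−0.17 to 0.10) in SKF and 0.04 (−0.09 to 0.17) in vehicle.

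**Figure D3:**
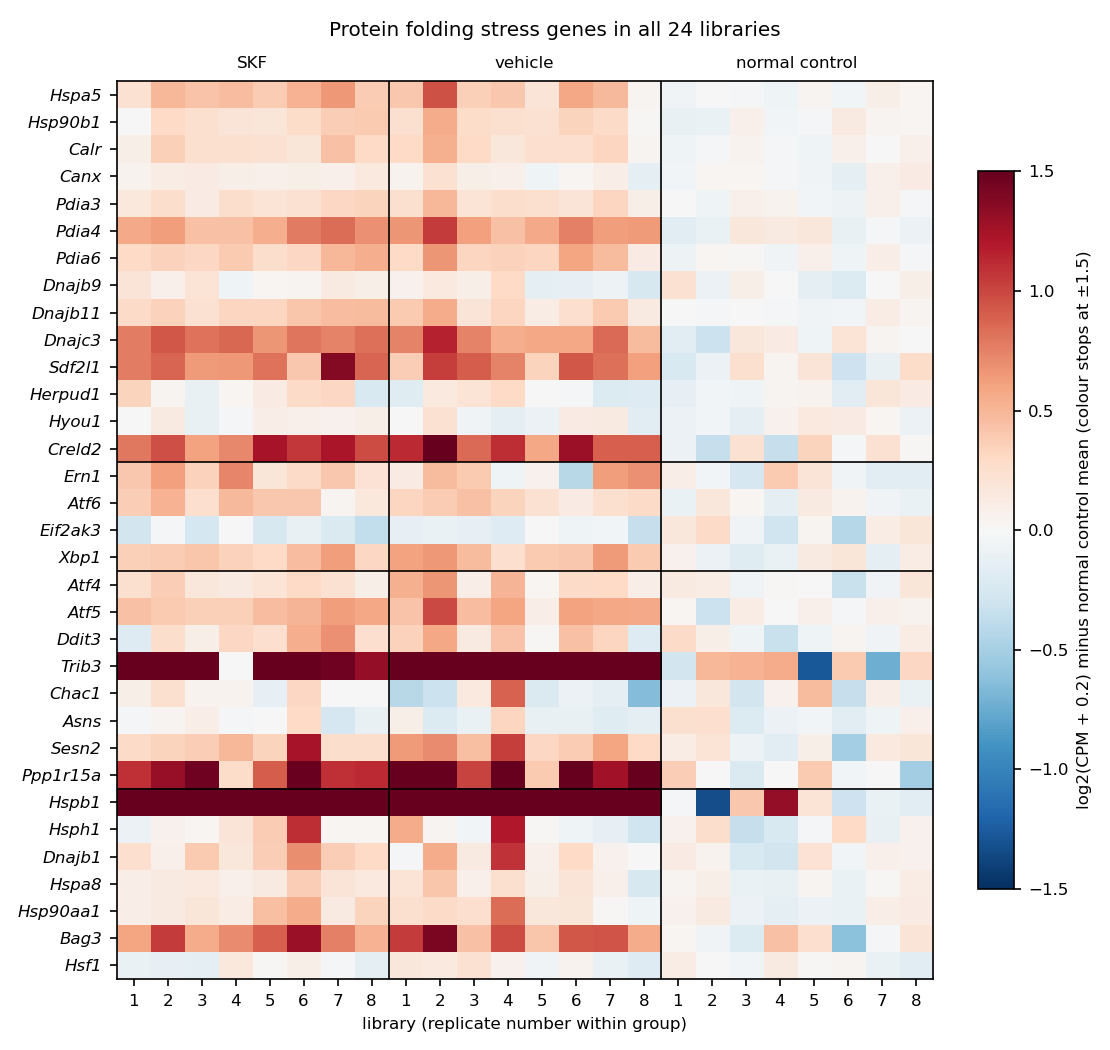
Log2 of CPM + 0.2 minus its normal control mean (colour, which stops at ±1.5) for each of the 33 genes (rows) in each of the 24 libraries (columns). The heat shock genes Hsph1, Dnajb1 and Hsp90aa1 are highest in SKF 6 among SKF libraries and in vehicle 4 among vehicle libraries, and 12 of the 14 ER chaperones and folding factors are highest in vehicle 2 among vehicle libraries.

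Per length, in TPM, the most abundant member was Hspa8, with a mean of 2317 TPM in SKF, 2321 TPM in vehicle and 1930 TPM in normal control. Hspb1 averaged 895 TPM in SKF, 830 TPM in vehicle and 27.1 TPM in normal control, which made it the third most abundant of the 33 in SKF and in vehicle, and number 21 in normal control. Summed over the 33 genes the level was 8600 ± 755 TPM in SKF, 8671 ± 929 TPM in vehicle and 6097 ± 337 TPM in normal control (SD, n = 8 each). Without Hspb1 the sums were 7705, 7842 and 6070 TPM in the same order. The 14 ER chaperones and folding factors summed to 2811 TPM in SKF, 2864 TPM in vehicle and 2153 TPM in normal control. On the log2(TPM + 1) scale the median change over all genes tested was itself above 0, at 0.0872 in SKF and 0.109 in vehicle. The TPM levels and sums are not corrected for that shift.

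Whether the agonist changed these programmes was read from SKF against vehicle. No member passed: 0 of the 33 were called higher and 0 lower, and 0 of the 33 had an unadjusted p under 0.05. Over all 14421 genes edgeR also called 0% higher and 0% lower, with 308 higher and 407 lower at an unadjusted p under 0.05, and DESeq2 called 0. The log2 fold changes of the members ran from −0.37 to 0.13, with 16 above and 17 below 0, and their 95% intervals lay between −0.77 and 0.52. Among the ER chaperones, Hspa5 differed by −0.00 (−0.18 to 0.17), Canx by 0.05 (−0.05 to 0.15) and Pdia4 by −0.06 (−0.21 to 0.10), and Creld2 by −0.11 (−0.37 to 0.15). For Hspb1 the difference was 0.13 (−0.26 to 0.52) and for Xbp1 −0.08 (−0.21 to 0.06). A p that misses the threshold does not show that SKF and vehicle were alike.

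The smallest p was that of Ppp1r15a. Its log2 fold change between SKF and vehicle was −0.37 ± 0.18 (95% interval −0.75 to 0.00), with an edgeR p of 0.0508 and an adjusted p of 0.937. Each of the 8 SKF libraries was under the median of vehicle, 16.8 CPM, and the lowest, at 6.83 CPM, was under the lowest vehicle library, at 7.45 CPM. Over the other settings its log2 fold change ran from −0.48 to −0.28, with an adjusted p between 0.613 and 1. For Chac1 each of the 8 SKF libraries was above the median of vehicle, 9.12 CPM, and inside the vehicle range, at a log2 fold change of 0.12 (−0.21 to 0.44). How many of all genes lie wholly above or below the vehicle median in SKF was not counted. The positions of Ppp1r15a and Chac1 are therefore given as a description only, and they do not show an agonist effect or its absence.

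**Figure D4:**
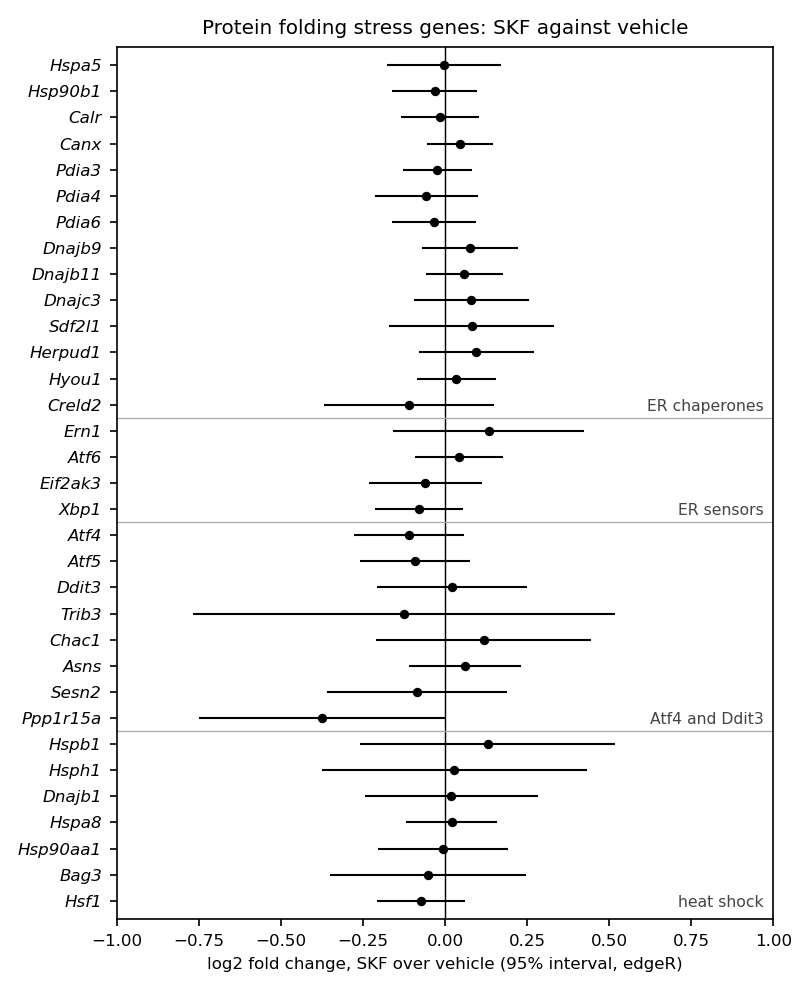
Log2 fold change of SKF over vehicle with its 95% interval from edgeR (x axis) for each of the 33 genes (y axis), with n = 8 libraries a group. Every interval includes 0, and the point of Ppp1r15a, at −0.37, lies furthest to the left.

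The spread among libraries also differed between groups, which was not tested. The median coefficient of variation of CPM over the 33 genes was 9.94% in SKF, 16.4% in vehicle and 9.87% in normal control, and it was lower in SKF than in vehicle for 26 of the 33. Over all 14421 genes the medians were 12.2% in SKF, 14.0% in vehicle and 13.5% in normal control, and 60.9% of genes varied less in SKF than in vehicle. Single libraries stood out. Vehicle 2 was the highest of its group in 12 of the 14 ER chaperones and folding factors, and SKF 6 the highest of its group in 6 of the 7 heat shock genes. Vehicle 2 was also the highest vehicle library in summed markers of oligodendrocytes (15743 CPM), homeostatic astrocytes (4488 CPM) and choroid plexus (3914 CPM), and the lowest in those of neurons (3323 CPM). SKF 6 was the lowest SKF library in summed markers of neurons (4134 CPM) and homeostatic microglia (247 CPM), and vehicle 4 the lowest vehicle library in those of homeostatic microglia (252 CPM), fibroblasts (488 CPM), dividing cells (82.5 CPM) and B and plasma cells (31.6 CPM). Vehicle 2 was the highest vehicle library in markers of dividing cells (147 CPM). Their part in the chaperone levels was not tested. Without vehicle 2, vehicle 4 and SKF 6 together, 22 members were called higher in SKF and 19 in vehicle, 2 of them heat shock genes, and 0 differed between SKF and vehicle.

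Markers of several cell types also differed from normal control, some higher and others lower. Summed macrophage markers had 450 to 842 CPM in SKF libraries, 590 to 884 CPM in vehicle libraries and 35.5 to 58.0 CPM in normal control libraries, and all 8 tested of 9 listed rose in both comparisons. Summed neutrophil markers had 40.8 to 62.7 CPM in SKF, 59.5 to 145 CPM in vehicle and 4.01 to 8.77 CPM in normal control, with 6 of 6 tested higher in both. Reactive astrocyte markers summed to 4289 to 4858 CPM in SKF, 3594 to 5302 CPM in vehicle and 480 to 952 CPM in normal control, with 7 of 7 tested higher in both and Serpina3n at 0 in every library. Markers of dividing cells summed to 96.2 to 150 CPM in SKF, 82.5 to 147 CPM in vehicle and 14.1 to 25.4 CPM in normal control, with 6 of 6 higher in both. Oligodendrocyte markers summed to 8149 to 13680 CPM in SKF, 10143 to 15743 CPM in vehicle and 13965 to 24804 CPM in normal control, with 7 of 7 lower in both. Neuron markers summed to 4134 to 5556 CPM in SKF, 3323 to 5236 CPM in vehicle and 5017 to 6226 CPM in normal control, with 5 of 8 lower in SKF and 6 of 8 in vehicle. Of 7 homeostatic astrocyte markers 1 was higher and 6 lower in both. Of 8 homeostatic microglia markers 0 were higher and 5 lower in SKF, and 1 and 4 in vehicle. Endothelium (6 tested) had 2 higher and 3 lower in SKF, and 2 and 2 in vehicle. Fibroblasts (7 tested) had 1 higher and 1 lower in SKF, and 2 and 1 in vehicle. Their markers summed to 459 to 720 CPM in SKF, 488 to 727 CPM in vehicle and 203 to 465 CPM in normal control. Markers of B and plasma cells summed to 35.5 to 46.5 CPM in SKF, 31.6 to 69.8 CPM in vehicle and 8.42 to 11.4 CPM in normal control. Of these 8 markers 3 were tested, with 1 higher and 0 lower in both comparisons. For choroid plexus 0 of 5 passed in either, with sums that varied widely within groups. They ran from 292 to 2322 CPM in SKF, 1005 to 3914 CPM in vehicle and 8.13 to 3823 CPM in normal control. The part of these shifts in the levels of the chaperone and stress genes was not tested.

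Wider lists of the same pathways, 147 tested genes in all, moved in both directions. Over the 5 lists 63 were higher and 21 lower in SKF, 61 were higher and 24 lower in vehicle, and 0 passed between SKF and vehicle. Over all genes tested 25.5% were called higher and 24.7% lower in SKF, and 26.9% and 27.1% in vehicle. Of 33 genes of ER folding and translocation, 16 were higher and 5 lower in SKF, and 14 and 5 in vehicle. Serpinh1, the collagen chaperone, rose by 1.16 on the log2 scale in SKF and 1.31 in vehicle, P4hb, the archetypal disulfide isomerase, by 0.86 and 0.95, and Sec61a1, the pore of the translocon, by 0.72 and 0.81. Fkbp2, an ER prolyl isomerase, had −0.21 in SKF and −0.37 in vehicle, and Dnajb2, a J-domain protein abundant in neurons, −0.30 and −0.34. Of 24 genes of ER-associated degradation 6 were higher and 3 lower in SKF, and 6 and 4 in vehicle, a share higher near that over all genes. Edem1, which marks misfolded glycoproteins for degradation, rose by 0.81 in SKF and 0.87 in vehicle, while Erlec1, an ER lectin, had −0.35 in SKF and −0.36 in vehicle. Ubxn4 and Edem2 rose by 0.30 and 0.24 in SKF and by 0.30 and 0.29 in vehicle, and the ubiquitin ligase Rnf5 had −0.22 in SKF and −0.27 in vehicle. Of 14 regulators at the ER membrane 7 were higher and 3 lower in SKF, and 6 and 3 in vehicle. Bak1 and Bax, which permeabilise membranes in apoptosis, rose by 1.05 and 0.45 in SKF and by 1.12 and 0.47 in vehicle, and the transcription factor Creb3l1 by 0.54 and 0.81. Insig1, the sterol sensor partner, had −0.27 in SKF and −0.35 in vehicle, and the transcription factor Nfe2l1 −0.17 and −0.21.

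Of 31 genes of the integrated stress response and Atf4 targets, 16 were higher and 6 lower in SKF, and 15 and 5 in vehicle. The stress-induced transcription factor Atf3 had a mean of 16.8 CPM in SKF, 20.9 CPM in vehicle and 0.947 CPM in normal control, and rose by 4.11 on the log2 scale in SKF (edgeR adjusted p = 1.04e-14) and by 4.43 in vehicle (adjusted p = 1.69e-15). Cebpb, a partner of the Atf factors, had 32.0 CPM in SKF, 42.4 CPM in vehicle and 8.03 CPM in normal control, at 1.99 in SKF and 2.40 in vehicle. Eif4ebp1, an inhibitor of translation, rose by 1.64 in SKF and 1.75 in vehicle. In the other direction, the glycine transporter gene Slc6a9 had −1.25 in SKF and −1.27 in vehicle, and Psat1, an enzyme of serine synthesis, −0.86 and −0.94. Of 45 further cytosolic and mitochondrial heat shock genes, 18 were higher and 4 lower in SKF, and 20 and 7 in vehicle. Hspa2, an Hsp70, rose by 1.43 in SKF and 1.49 in vehicle, and the small heat shock genes Cryab and Hspb8 by 0.94 and 1.14 in SKF and by 1.11 and 1.09 in vehicle. Dnajb5, a J-domain protein, had −0.60 in SKF and −0.68 in vehicle, and Hsf4, a relative of Hsf1, −0.88 and −0.62.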

How the data were processed

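Gene-level read counts and TPM values of all 24 libraries were deposited by the authors. Libraries were made with poly(A) selection and a directional kit, per the labels' protocols, and the genome build was mRatBN7.2, per the submitters' processing notes. Which aligner and counter were used is not given in the sources here. No label names a batch. Of the 29539 rows, 6451 carry an Ensembl ID only.

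The 36 genes and all gene lists were chosen with earlier results of these data known. Counts as deposited were filtered with edgeR's filterByExpr by group, which kept 14421 genes. They were fitted with edgeR 4.0.16 (TMM scaling, quasi-likelihood, all 24 libraries, 21 residual degrees of freedom). The biological coefficient of variation was 16.2%. P-values were adjusted by Benjamini-Hochberg over all genes tested. CPM values in the text are TMM-normalised. The deposited TPM values were used for levels between genes and, with limma 3.58.1 on log2(TPM + 1), as an alternative. Alternatives for the counts were no filter, a filter of at least 1 CPM in at least 8 libraries (14342 genes), RLE size factors and DESeq2 1.42.0. Others were only the compared groups, the replicate number as a block, another pseudocount, and each library left out. Normal control 4 and 6 were also left out together. Leaving out vehicle 2, vehicle 4 and SKF 6 together was chosen after the data were seen. The scripts were tested on simulated data. R 4.3.3, Python 3.11.15, pandas 2.3.3, NumPy 2.4.6 and Matplotlib 3.10.9 were used. Promoters are from RefSeq, build GRCr8, and were matched by symbol. Protein sequences were not used here.

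Every member is named. Of each wider pathway list the text names the 3 largest rises and the 2 largest falls in vehicle against normal control, among genes past the threshold whose log2 CPM averaged 1 or more.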

Additional observations from a re-analysis of the deposited data

Results flagged for a closer look

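In 7 of 99 sets of 8 libraries (33 genes, 3 groups) the lowest or highest library stood further from its neighbour than Dixon's 95% critical value, with the ratio taken as the gap over the range of the group on the log2 CPM scale. Chance alone flags about 1 in 20 such sets. SKF 6 was high in Sesn2 (46.5 CPM, next 27.9 CPM, ratio 0.754), in Hsph1 (819 CPM, next 493 CPM, ratio 0.607) and in Hspa8 (2512 CPM, next 2230 CPM, ratio 0.589). Vehicle 4 was high in Hsp90aa1 (2112 CPM, next 1443 CPM, ratio 0.604). SKF 4 was low in Trib3 (0.281 CPM, next 0.998 CPM, ratio 0.572). Normal control 6 was low in Atf4 (102 CPM, next 124 CPM, ratio 0.539) and normal control 2 in Atf5 (45.5 CPM, next 55.6 CPM, ratio 0.659). Sesn2 kept its call in SKF without SKF 6, where it was 0.32 higher on the log2 scale (edgeR adjusted p = 0.0146). Atf4 did not keep its SKF call without normal control 6 (0.17, edgeR adjusted p = 0.0713), and its vehicle value was then 0.28 (adjusted p = 0.00342). Hsph1, which had not passed, was 0.080 in SKF without SKF 6. Without the library that stood apart, Atf5 and Trib3 kept their calls in SKF and vehicle, and Hsp90aa1 lost its vehicle call without vehicle 4 (0.16, edgeR adjusted p = 0.0894).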

How the results depend on the processing

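The calls of 19 members in SKF against normal control and of 19 in vehicle against normal control held under every alternative that gave a value, 35 for each gene except Trib3 in SKF, which had 34 because it did not pass the count filter with only SKF and normal control kept. No alternative called a member between SKF and vehicle. Calls lost in SKF were those of Eif2ak3 (18 alternatives), Ddit3 (9), Dnajb1 (9), Atf4 (8) and Hsp90aa1 (6), and in vehicle those of Ddit3 (19), Dnajb1 (15) and Hsp90aa1 (4). Calls gained under some alternative were those of Canx, Dnajb9 and Hspa8 in SKF and of Canx, Ern1, Eif2ak3 and Hspa8 in vehicle. The titles do not say whether the replicate numbers pair the libraries, and no pairing was seen in the counts. Same-numbered libraries correlated at −0.241 to 0.0783 in their deviations, 0 pairs were over 0.1 and 0 libraries correlated best with their own number. Low correlations cannot show that the libraries were unpaired. With the replicate number as a block 20 members were called higher in SKF and 19 in vehicle, and 0 between SKF and vehicle.

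The 1 member called lower in SKF, a sensor (Eif2ak3), became 0 without a filter, with the block, with only the 2 groups compared, on log2(TPM + 1) with or without a filter, on log2(TPM + 0.1) and without vehicle 2, vehicle 4 and SKF 6 together (from here, the 3 libraries), and ranged from 0 to 1 with 1 library left out. In vehicle the 0 called lower, sensors included, became 1 without normal control 4 and 6 together and ranged from 0 to 1 with 1 library left out. Heat shock genes called higher went to 2 with the block and without normal control 4 and 6, in SKF and in vehicle, and in vehicle also to 2 without the 3 libraries. With 1 library left out they ranged from 2 to 5 in both. The cause of these changes was not tested.

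Signs turned in 22 member values, none of them called and none larger than 0.14 on the log2 scale as reported. For SKF against normal control, Asns was 0.0052, but −0.0016 by DESeq2, −0.0022 with RLE factors, −0.038 without normal control 4 and 6, −0.047 without the 3 libraries and −0.047 to 0.043 with 1 library left out. Hsf1 was −0.032, but 0.067 on log2(TPM + 1) and on log2(TPM + 1) without a filter and 0.069 on log2(TPM + 0.1). For vehicle against normal control, Dnajb9 was 0.0075, but −0.026 without normal control 4 and 6, −0.075 without the 3 libraries and −0.040 to 0.041 with 1 library left out. Herpud1 was 0.012, but −0.0098 without normal control 4 and 6, −0.069 without the 3 libraries and −0.035 to 0.041 with 1 library left out. Hyou1 was 0.0039, but −0.014 without the 3 libraries and −0.031 to 0.028 with 1 library left out. Eif2ak3 was −0.14, but 0.0010 on log2(TPM + 1) and on log2(TPM + 1) without a filter and 0.0019 on log2(TPM + 0.1). Chac1 was −0.054, but 0.025 on log2(TPM + 1) and on log2(TPM + 0.1) and on log2(TPM + 1) without a filter and −0.25 to 0.024 with 1 library left out. Asns was −0.056, but 0.071 on log2(TPM + 1) and on log2(TPM + 1) without a filter and 0.072 on log2(TPM + 0.1). For SKF against vehicle, Hspa5 was −0.0018, but 3.2e-07 without a filter, 0.0099 with the block, 0.082 without the 3 libraries and −0.051 to 0.087 with 1 library left out. Hsp90b1 was −0.031, but 0.0098 without the 3 libraries and −0.065 to 0.013 with 1 library left out. Calr was −0.015, but 0.025 without the 3 libraries and −0.046 to 0.026 with 1 library left out. Pdia3 was −0.023, but 0.020 without the 3 libraries and −0.046 to 0.014 with 1 library left out. Pdia4 was −0.056, but −0.093 to 0.0048 with 1 library left out. Pdia6 was −0.033, but 0.012 without the 3 libraries and −0.069 to 0.0084 with 1 library left out. Sdf2l1 was 0.082, but −0.020 to 0.13 with 1 library left out. Ddit3 was 0.021, but −0.0089 on log2(TPM + 1) and on log2(TPM + 1) without a filter, −0.0090 on log2(TPM + 0.1) and −0.046 to 0.076 with 1 library left out. Trib3 was −0.13, but −0.23 to 0.028 with 1 library left out. Hsph1 was 0.028, but −0.15 to 0.23 with 1 library left out. Dnajb1 was 0.020, but −0.044 to 0.17 with 1 library left out. Hspa8 was 0.020, but −0.027 to 0.063 with 1 library left out. Hsp90aa1 was −0.0068, but 0.0021 with the block, 0.072 without the 3 libraries and −0.058 to 0.094 with 1 library left out. Bag3 was −0.052, but −0.14 to 0.045 with 1 library left out.

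Depth limits Trib3 most, with 0 to 26 counts a library. Intervals from edgeR cover the spread between libraries, and no batch label allows a split by batch.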
